A study of Mus musculus with 51 samples.

Results

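The step from day 2 to day 3 of Bmp4-driven mesoderm differentiation was followed in wild-type (WT) mouse embryonic stem cells (mESCs) by RNA-seq. A gene was taken into the comparison when its FPKM (fragments counted per gene, scaled to transcript length and to library size) was above 1 on day 2 or on day 3, which held for 11394 of the 24534 genes left after 2 duplicated names were set aside. For each gene, 0.1 was added to both values and the day 3 value was divided by that of day 2 and put on the log2 scale. A gene is said to have risen or fallen when this ratio was above 1 or below −1, that is, past 2-fold. Values given as a pair, such as a to b, are FPKM on day 2 and then on day 3. Series of 4 values are FPKM in ES cells and on days 1, 2 and 3. By the paper, ES stands for the embryoid body stage, cell aggregates before differentiation starts, and the labels give it no Bmp4 dose.

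The cells were F1G4 mESCs, an unmodified hybrid line, grown on feeder fibroblasts that were removed before differentiation. Cell aggregates were plated on fibronectin in serum-free medium with 20 ng/ml Bmp4, renewed daily, and by the labels day 2 and day 3 differ in the time under this treatment. The labels give 2 samples for each day, but the deposited table holds 1 pooled FPKM value per gene and day. No SD, test or depth could therefore be given for any difference, and all values below are descriptions of these pooled columns. In bulk RNA a change in the number of expressing cells and a change in RNA per cell cannot be told apart. Knockout (KO) lines on the same days, each with 1 sample per day by its label, served for comparison. The paper's legends give averages of 2 replicates for RNA-seq of these lines on day 3. How many libraries each KO column pools is thus not known. *Eomes* KO and *T* KO were made from F1G4 cells with pairs of Cas9 nickase cuts around the promoter and first exon, each line grown from single clones, and *Eomes*/*T* double KO (dKO) cells came from the *Eomes* KO line, so the KO lines are not independent of each other. Cells of the *Smad4* conditional line on day 2, 1 sample by its label with the same Bmp4 dose, gave a yardstick from a different line. They carry loxP sites around the first exon of *Smad4*, still in place, and are called WT in the labels.

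In the mouse embryo, Bmp4 from the extra-embryonic ectoderm induces the primitive streak in the posterior epiblast, where Wnt3 and Nodal signals are maintained. Cells passing through the streak express the T-box factors *T* (Brachyury) and *Eomes*, undergo an epithelial-mesenchymal transition (EMT) and leave as mesoderm. Early *Mesp1*-expressing cells give rise to heart and other anterior mesoderm, whereas later cells, in which *T*, Wnt3a and Fgf8 act together, form paraxial and posterior mesoderm.

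Of the 11394 genes, 660 (5.79%) rose and 437 (3.84%) fell, 1097 (9.63%) in all, and the median log2 ratio was 0.00617. Risers outnumbered fallers further out, with 199 against 93 past 4-fold and 70 against 15 past 8-fold. The minimum of FPKM 1 fixes part of these counts. A gene above 1 on day 3 alone had to be counted as risen once its day 2 value lay under 0.45, which was so for 156 of the 660, and 111 of the 437 had to be counted as fallen in the mirrored way. Among the 10478 genes above 1 on both days, 362 rose and 188 fell. Risers were mostly genes of low level, with a median FPKM of 1.18 on day 2 and 4.66 on day 3, and 204 of them reached FPKM 10. They held 1.01% of the summed FPKM on day 2 and 3.01% on day 3. Near the limits, *Bmp1* (3.57 to 7.26) stood just past 2-fold and *Aldh1a2* (0.458 to 1.02) just within it. On the falling side *Fam19a5* (3.92 to 1.91) and *Prkar2b* (6.51 to 3.21) had these places. *Fchsd1* (1.0 to 0.919) was just above FPKM 1 and *Nol4l* (0.794 to 0.999) just below it.

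**Figure D1:**
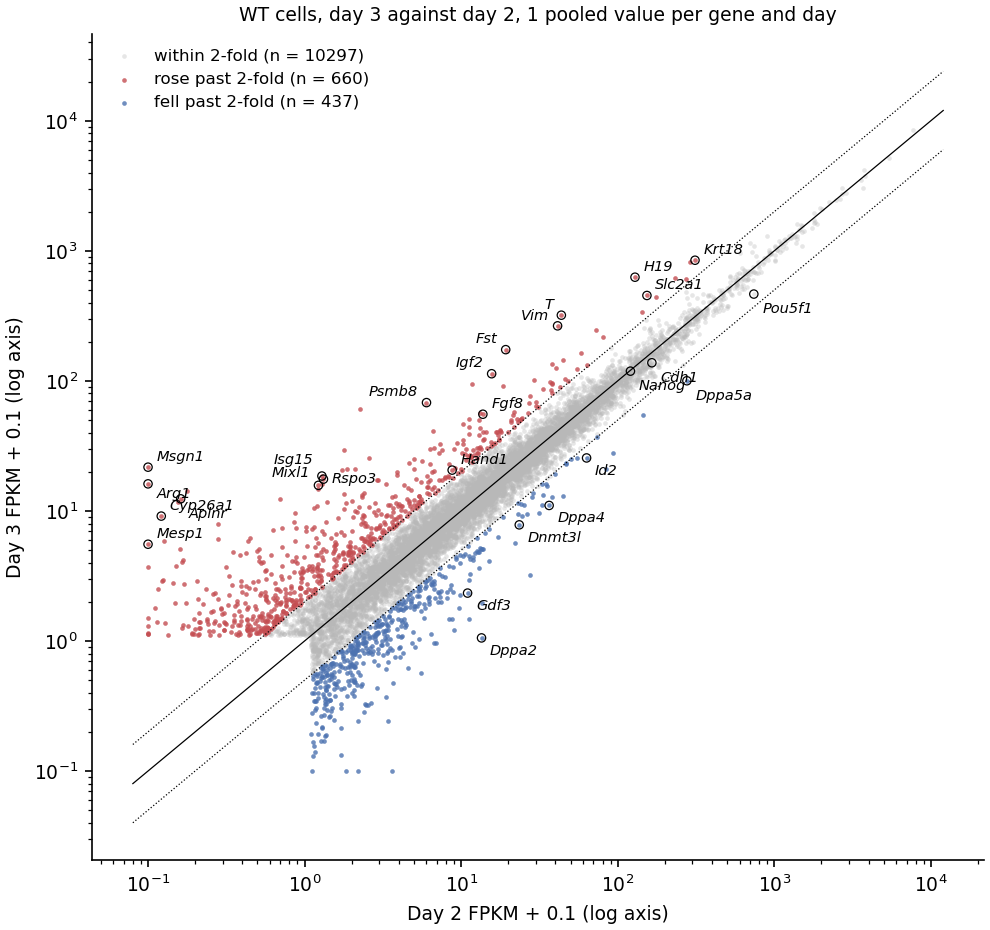
FPKM + 0.1 on day 3 (vertical, log axis) against day 2 (horizontal, log axis) for the 11394 genes, 1 pooled value per gene and day, with genes that rose in red, genes that fell in blue and circles around named genes. The solid line marks equal values and the dotted lines 2-fold; *Msgn1*, *Arg1*, *Aplnr* and *Cyp26a1* lie farthest to the left of the diagonal and *Dppa2* is the marked gene farthest below it.

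The difference on day 2 between F1G4 cells and the *Smad4* conditional line, called the other WT line here, put a size on these changes. On day 2, 520 of the 11394 genes (4.56%) differed by more than 2-fold between F1G4 cells and WT cells of the *Smad4* line after scaling to a common median. When the day 2 column of that line was used as the baseline, 1039 genes (9.12%) stood higher and 458 (4.02%) lower on day 3 of F1G4 cells. This baseline kept 507 of the 660 risers and 271 of the 437 fallers past 2-fold in their direction. Of the risers 15, and of the fallers 36, no longer had their direction at all. Among them was *Eomes*, whose day 3 level of 19.4 FPKM in F1G4 cells lay below the 24.8 FPKM of the other line on day 2, and *Isl1* (0.111 to 1.31, against 3.66 in the other line on day 2). Risers named below and no longer past 2-fold against this baseline included *Dll3*, *Nkx1-2*, *Wnt8a*, *Wnt6*, *Fgf5*, *Nog*, *Slc2a3*, *Tfap2c*, *Epha4*, *Igfbp3* and *Dnd1*. Fallers in the same position included *Id2*, *Fgf4*, *Egr1*, *Dppa4*, *Dppa5a*, *Cyct*, *Nupr1*, *Ovol2*, *Chac1*, *Trib3*, *Psph*, *Hist1h2ap* and *Ddx4*. The spread between the lines was widest at low levels. Its robust SD of the log2 ratio was 0.619 in the lowest of 10 equal groups of genes by expression and 0.207 in the highest, and 243 of the 660 risers came from the lowest group.

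**Figure D2:**
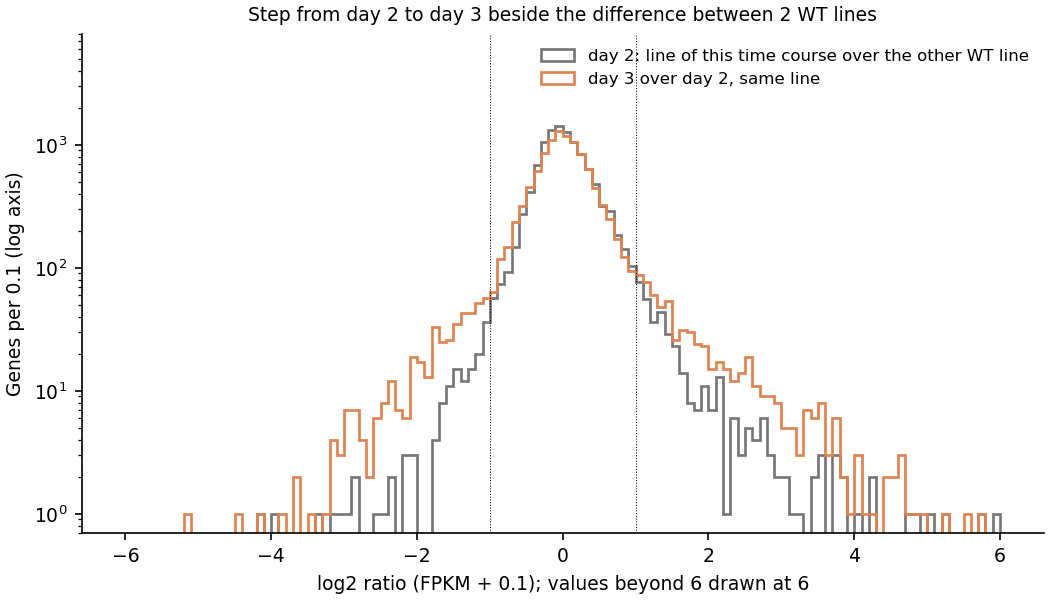
Number of genes (log axis) by log2 ratio in steps of 0.1, for day 3 over day 2 in F1G4 cells (orange) and for day 2 of F1G4 cells over day 2 of the other WT line (grey), both over the 11394 genes. The orange outline lies outside the grey one past 2-fold (dotted lines) on both sides, with 1097 and 520 genes beyond the lines.

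The labelled stages were checked against markers of each. The 6 markers of nascent mesoderm all stood above FPKM 1 on day 2 and none of them fell. *T* went from 43.5 to 319.9, *Eomes* from 9.5 to 19.4, *Mixl1* from 1.13 to 15.6, *Wnt3* from 16.4 to 25, *Evx1* from 3.5 to 4.92 and *Nodal* from 32.1 to 30.8. Of the 7 markers of cardiac mesoderm, *Hand1*, *Aplnr*, *Mesp1*, *Pdgfra* and *Isl1* rose to 20.5, 12.3, 5.45, 1.8 and 1.31 FPKM. *Kdr* (0.0528 to 0.415) and *Gata4* (0.168 to 0.644) stayed below 1, as did *Nkx2-5*, *Tbx5*, *Gata6* and *Foxf1* on both days. All of the nascent mesoderm markers except *Nodal* were thus higher on day 3 than on day 2, and the columns are called here by their day and not by a cell type. Not every marker listed for other lineages is given here. Left out are *Tubb3* (neural), *Etv2* and *Pecam1* (blood and endothelium), *Meox1* (paraxial mesoderm) and *Esrrb*, *Zfp42* and *Klf4* (undifferentiated cells). *Sox1*, *Pax6* and *Six3* (neural), *Sox17* and *Cer1* (endoderm), *Tal1*, *Cdh5* and *Runx1* (blood and endothelium) and *Cga*, *Gcm1*, *Elf5* and *Tpbpa* (trophoblast) were below 1 on both days. These markers do not stand for all genes of a lineage. In the longer lists 12 of 28 neural, 5 of 19 endoderm and 5 of 22 blood and endothelial genes exceeded FPKM 1 on either day. So did 12 of 20 trophoblast and amnion-associated genes and 14 of 19 naive pluripotency factors. *Trh*, listed here as an endoderm marker, went from 96 to 70.2, and *Foxa2*, expressed in endoderm and in the anterior streak, from 0.51 to 4.5. Of the 7 feeder markers 1 exceeded FPKM 1, *Thy1*, which fell from 1.97 to 0.39. In the longer list of 19 fibroblast transcripts 6 exceeded 1, of which *Pdgfrb* (0.465 to 2.9) and *S100a4* (0.242 to 1.21) rose, *Thy1* fell and *Fbln1* went from 4.53 to 4.95.

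Primitive streak transcription factors rose together. Of 20 listed, 17 were above FPKM 1, of which 11 rose and 0 fell, beside 5.79% of all genes, and 4 of the 11 had to rise under the minimum. The median log2 ratio over the 20 was 1.95, and that over the 11394 genes 0.00617. *T* went through 0.0784, 0.778, 43.5 and 319.9 FPKM in ES cells and on days 1, 2 and 3, so that its largest absolute gain came in this last step. *Mixl1*, a homeobox gene of the streak, measured 0.267, 0.451, 1.13 and 15.6 at these stages, and *Sp5*, a direct Wnt target, 0.14, 0.0297, 2.24 and 12.7. *Gsc* and *Foxa2*, genes of the anterior streak, went from 0.401 to 2.8 and from 0.51 to 4.5, and *Lhx1* from 0.0292 to 1.26. Expression of *Mesp1*, the bHLH gene that marks cardiac precursors, was listed at 0 on day 2 and at 5.45 on day 3. *Eomes* (1.03 on the log2 scale) rose just past the limit, while *Foxh1* (29.9 to 26.9), the partner of Smad2 at Nodal targets, stayed within 2-fold.

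Genes of posterior mesoderm rose, some of them from levels close to 0. *Msgn1*, the master regulator of presomitic mesoderm, was listed at 0 on day 2 and at 21.6 FPKM on day 3, the highest value among genes listed at 0 on day 2. *Tbx6*, which acts beside it, reached 0.738 and remained below 1, and of the 16 paraxial genes listed 5 were above 1 and 3 rose, the other 2 being the Notch ligands *Dll1* (0.593 to 1.84) and *Dll3* (0.711 to 2.24). *Tcf15* (3.2 to 3.48) and *Lfng* (2.24 to 3.59) were expressed on both days and stayed within 2-fold. In the list of Cdx and posterior axis genes, 8 of 10 above FPKM 1 rose (80%, beside 5.79% of all genes) and 0 fell. The minimum forced 3 of the 8. *Cyp26a1*, which degrades retinoic acid, went from 0.0215 to 9.02, *Cdx2* from 0.617 to 7.3, *Nkx1-2* from 2.06 to 9.69 and *Fgf8* from 13.7 to 55.3. Genes from the 3' end of the Hoxb cluster, *Hoxb1* (0.0437 to 2.71) and *Hoxb2* (0.178 to 5.95), rose as well.

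Promoter windows of 300 bases, from 250 before to 50 after the start, were taken from RefSeq (GRCm38.p6, the build of mm10). A window was matched for 472 of the 660 risers (71.5%) and 325 of the 437 fallers (74.4%), so a comparison of motif shares between these sets is void. The letters of a TCF/LEF site (CTTTGAT or CTTTGAA, either strand) occur in 8.65% of all 32851 windows. Among the 472 windows matched for risers their share was 7.2%. The windows of *T* and *Msgn1*, the streak and presomitic genes described above, were picked from those that hold the letters, shown in capitals. They lie at chr17:8434173-8434472 (plus strand) and chr12:11208899-11209198 (minus strand), both printed 5′ to 3′ along the gene.
T: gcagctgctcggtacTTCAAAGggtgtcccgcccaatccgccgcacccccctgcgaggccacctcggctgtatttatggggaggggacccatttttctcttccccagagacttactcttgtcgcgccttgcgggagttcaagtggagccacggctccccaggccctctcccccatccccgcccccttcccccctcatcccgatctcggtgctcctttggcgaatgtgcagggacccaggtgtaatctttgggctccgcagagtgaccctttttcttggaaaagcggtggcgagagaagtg
Msgn1: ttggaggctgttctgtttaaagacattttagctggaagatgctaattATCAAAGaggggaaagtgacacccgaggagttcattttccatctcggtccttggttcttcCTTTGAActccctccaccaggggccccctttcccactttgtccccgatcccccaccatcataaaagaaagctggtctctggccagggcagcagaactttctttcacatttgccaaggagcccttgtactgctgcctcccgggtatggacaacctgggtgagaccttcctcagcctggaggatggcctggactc
The *T* window holds 1 match and the *Msgn1* window 2. A match describes the letters and is not a measured binding site.

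**Figure D3:**
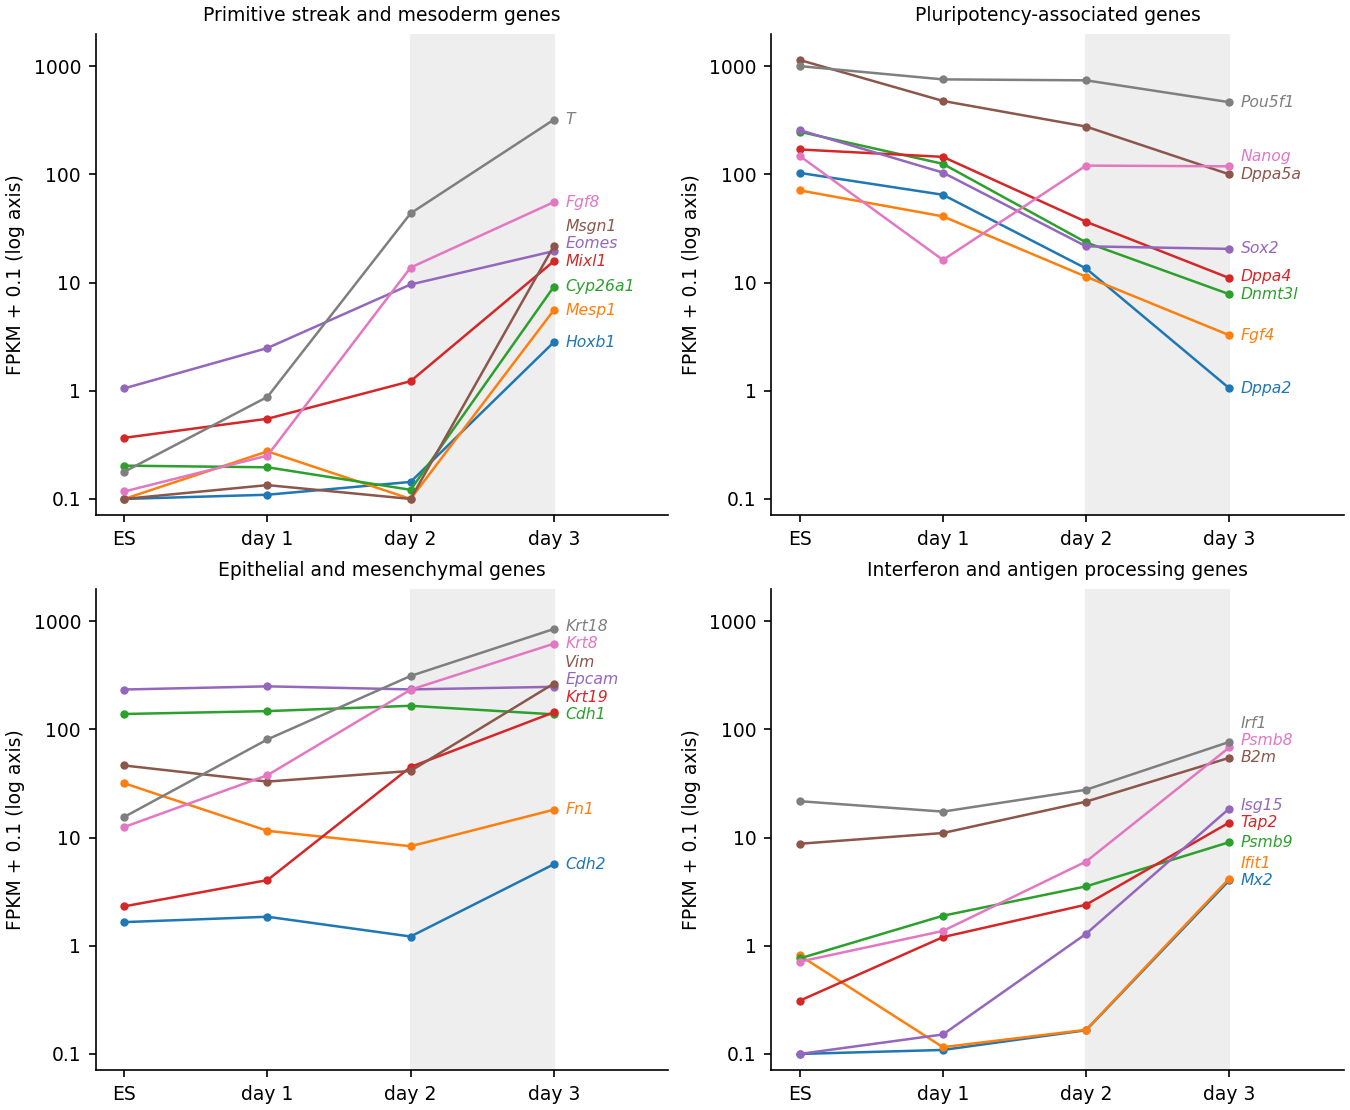
FPKM + 0.1 (log axis) in ES cells and on days 1, 2 and 3 for 32 genes in 4 groups, with the step from day 2 to day 3 shaded and 1 pooled value per point. In the shaded step streak genes climb, *Nanog* and *Sox2* stay level while *Dppa2* drops to 0.955, *Cdh1* and *Epcam* stay level beside rising keratins and *Vim*, and interferon-response genes climb too.

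Wnt ligands were among the genes that rose. Of 9 above FPKM 1, 6 rose (66.7%) and 0 fell, beside 5.79% and 3.84% of all genes. The minimum forced 2 of the 6. *Wnt3a*, the ligand of the later streak, went from 0.0497 to 1.86 and *Wnt5a*, a ligand of the non-canonical branch, from 0.0691 to 2.65. *Wnt8a* (17.7 to 41.7) and *Wnt5b* (8.71 to 17.8) were the highest of the risers, while *Wnt3* stayed within 2-fold. *Wnt8a* was already at 37.8 on day 2 in the other WT line. Among receptors, modulators and targets 6 of 30 rose (20%) and 3 fell (10%). Of the 26 above 1 on both days 3 rose and 2 fell. *Rspo3*, a secreted amplifier of Wnt signalling, went from 1.22 to 17.5, and the antagonists *Dkk1* and *Notum* from 2.22 to 8.68 and from 0.481 to 1.9. The antagonist *Sfrp2* (5.66 to 1.4) fell. *Axin2*, a feedback target read as a measure of Wnt activity, went from 10.9 to 13.5 and *Lef1* from 3.66 to 6.56, both within 2-fold.

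Within the TGFβ family the antagonist follistatin had the highest ratio of the Nodal list. *Fst*, which binds activins and some BMPs, measured 1.18, 5.49, 19.2 and 174 FPKM at the 4 stages. Of 18 Nodal pathway genes above FPKM 1, *Fst* was the 1 that rose (5.56%), a share near the 5.79% of all genes. Another 3 fell (16.7%, beside 3.84% of all genes). These were *Gdf3* (10.9 to 2.23) and *Gdf1* (1.17 to 0.164), partners of Nodal, and the convertase *Pcsk6* (4.01 to 1.21). *Nodal* itself (32.1 to 30.8), its co-receptor *Tdgf1* (569 to 533) and its feedback antagonists *Lefty1* (17.1 to 14.3) and *Lefty2* (30 to 39.3) stayed within 2-fold. None of the 7 Smad genes above 1 passed 2-fold in either direction. On the BMP side 6 of 13 ligands, receptors and antagonists rose (46.2%) and 0 fell. The minimum forced 1 of the 6, and 2 of 9 above 1 on both days rose. Endogenous *Bmp4* measured 13, 0.569, 0.543 and 2.68 at the 4 stages, so it rose in this step but stayed below its ES level, and the antagonist *Nog* reached 1.45. Of 14 direct BMP targets above 1, 3 rose (21.4%) and 1 fell (7.14%). *Msx2* (3.27 to 9.21), *Hand1* (8.66 to 20.5) and *Dlx3* (0.76 to 2.27) rose, *Id2* (63.2 to 25.4) fell, and *Id1* (52.1 to 29.2) and *Id3* (40.4 to 40.9) stayed within 2-fold.

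FGF genes went both ways. *Fgf8* and *Fgf5* (11.5 to 26, with 23.9 in the other WT line on day 2) rose and *Fgf4*, the ligand of naive cells, fell (*Fgf4* 71, 40.8, 11.2 and 3.16 at the 4 stages). In all 5 of 12 FGF ligands and receptors above FPKM 1 rose (41.7%) and 3 fell (25%). Of the 10 above 1 on both days 3 rose and 3 fell. ERK feedback genes included 1 riser, *Dusp5* (3.66 to 12.9), and 2 fallers, *Etv4* (7.27 to 2.08) and *Egr1* (3.98 to 0.798), out of 16, shares of 6.25% and 12.5% beside 5.79% and 3.84% of all genes, and *Dusp6* went from 63.5 to 68.6 and *Spry4* from 5.94 to 6.07.

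Pluripotency genes fell in part. Of 26 core and formative factors, all above FPKM 1, 5 fell and 1 rose, and of 14 naive factors above 1 3 fell and 1 rose, beside 3.84% and 5.79% of all genes. *Dppa2*, a chromatin factor of early embryos, fell from 13.4 to 0.955 (−3.68 on the log2 scale), the largest fall among genes that reached FPKM 10 and were above 0 on both days. Its neighbour *Dppa4* went from 36.4 to 10.9, *Dppa5a* from 277 to 100.1, *Dnmt3l*, the cofactor of de novo methylation, from 23.4 to 7.71 and *Utf1* from 11.4 to 4.15. *Pou5f1* had one of the largest absolute losses, from 740.1 to 465, yet stayed within 2-fold. *Sox2* (21.5 to 20.4) and *Nanog* (120.5 to 119) were within 2-fold, and *Nanog* had gone through 16.1 on day 1. The other large falls of highly expressed genes were those of *Tdh* (13.4 to 1.84), threonine dehydrogenase of mESCs, *Cyct* (21.9 to 5.61), the testis cytochrome c, *Cpe* (11.2 to 2.84), *Zfp365* (12.9 to 3.51) and *Nupr1* (14.9 to 4.0), and of *Hist1h2aa* (27.4 to 3.1), a histone of germ cells. *Cyct* measured 1.04 in the other WT line on day 2, below its day 3 level in F1G4 cells.

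**Figure D4:**
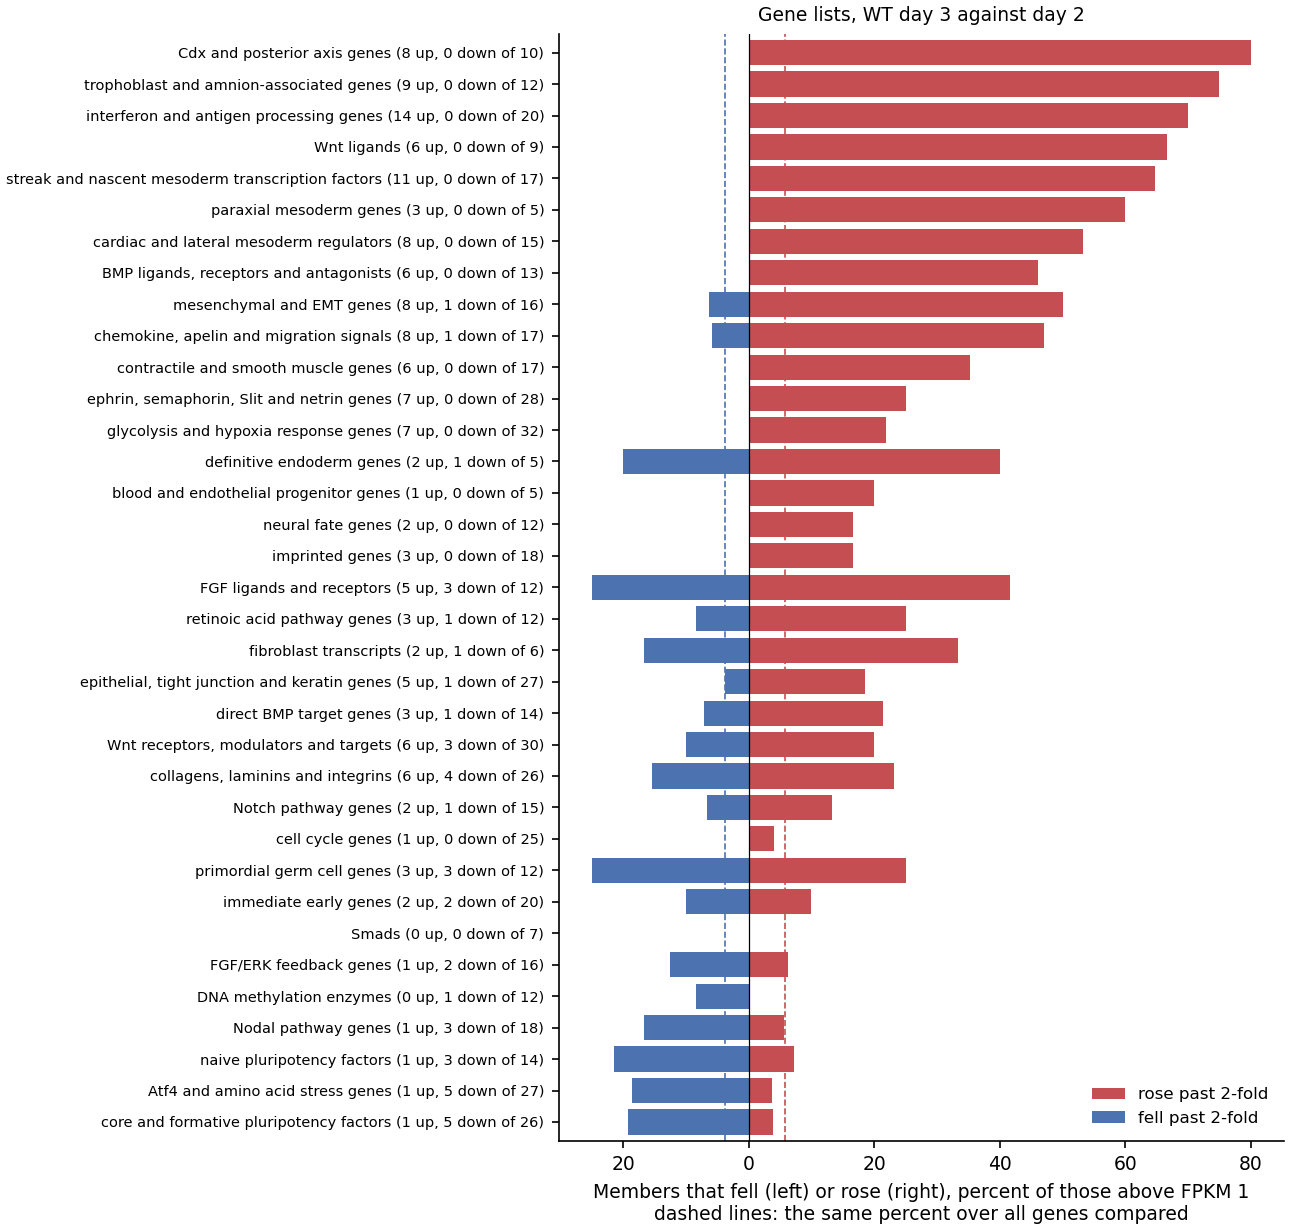
Percent of the list members above FPKM 1 that rose (red, right) or fell (blue, left) from day 2 to day 3, for the 35 lists with at least 5 such members, with counts beside each name. Dashed lines mark 5.79% and 3.84%, the shares over all genes compared; posterior axis, trophoblast and amnion-associated, interferon, Wnt ligand and streak lists reach farthest to the right and the pluripotency and Atf4 lists lie at the bottom.

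Several mesenchymal genes rose and most epithelial genes stayed within 2-fold. Of 16 mesenchymal and EMT genes above FPKM 1, 8 rose and 1 fell, beside 5.79% and 3.84% of all genes. The minimum forced 3 of the 8, and 3 of the 11 above 1 on both days rose. *Vim*, the intermediate filament protein of mesenchymal cells, had measured 46.3, 32.8 and 41.2 in ES cells and on days 1 and 2 and was at 265 on day 3. *Cdh2* (N-cadherin) went from 1.12 to 5.56, *Zeb2*, a repressor of E-cadherin, from 0.554 to 2.39 and *Fn1* from 8.22 to 18. *Snai1* stayed below 1, at 0.587 on day 3. *Cdh1* (E-cadherin) went from 165 to 138 and *Epcam* from 234 to 247, and of 27 epithelial genes above 1, 1 fell (*Ovol2*, 3.06 to 1.46), a share of 3.7% beside 3.84% of all genes, and 5 rose. Those 5 were the keratins *Krt8* (233 to 619), *Krt18* (312 to 846) and *Krt19* (44.8 to 144) and the claudins *Cldn3* (5.34 to 11.8) and *Cldn4* (48.2 to 99.7). *Krt18* and the annexin partner *S100a10* (291 to 826) had 2 of the 5 largest gains in FPKM, beside *H19* (129 to 627), *Tpm1* (703 to 1157) and the short RNA *Rmrp* (7714 to 8535), of which the last 2 were within 2-fold.

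Genes of apelin signalling rose from low levels. *Aplnr*, the apelin receptor of mesoderm, measured 0, 0.0229, 0.0616 and 12.3 FPKM at the 4 stages and its ligand *Apln* 0.0526, 0.246, 2.46 and 25.6, whereas the other ligand *Apela* went from 143 to 126. *Arg1* (arginase) was listed at 0 on day 2 and measured 16 on day 3. *Igf2* (15.6 to 113) and its imprinted neighbour *H19* rose, as did *Cdkn1c* (23.9 to 50.8). These were 3 of 18 imprinted genes above FPKM 1 (16.7%, beside 5.79% of all genes), with 0 falling. *Pdgfra* (0.222 to 1.8) and *Pdgfrb* (0.465 to 2.9) rose from low levels. Contractile genes rose in 6 of 17 cases (35.3%) with 0 falling. The minimum forced 2 of the 6, and 2 of 11 above 1 on both days rose. The sarcomere genes *Tnnc1* (7.02), *Myl4* (4.03) and *Tnnt2* (1.01) rose to low values, and *Myh6* and *Myh7* stayed below 1.

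Interferon-response and antigen processing genes rose together. Of 23 listed, 20 were above FPKM 1, of which 14 rose (70%) and 0 fell, beside 5.79% and 3.84% of all genes. The minimum forced 4 of the 14, and the summed FPKM of the list went from 217 to 561. *Psmb8*, a subunit of the immunoproteasome, measured 0.613, 1.27, 5.91 and 67.9 at the 4 stages, *Irf1*, a transcription factor of the pathway, 21.6, 17.3, 27.6 and 76.5 and *Isg15*, a ubiquitin-like modifier, 0, 0.0514, 1.19 and 18.4. *Ifit1* (0.0671 to 4.08), *Mx2* (0.0656 to 3.92) and *Oasl2* (1.19 to 16) were near or below 1 on day 2. *Usp18*, which removes Isg15, was no list member and went from 0.0557 to 11.6, among the 10 highest ratios of genes reaching FPKM 10. *Stat2* (2.73 to 3.17) and *Ifit2* (4.99 to 4.14) stayed within 2-fold, and *Irf7*, *Mx1* and *Rsad2* were below 1 on both days. In the other WT line on day 2 *Psmb8* measured 5.55, *Isg15* 0.225 and *Irf1* 19.4, so the day 3 values lay above both lines on day 2.

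The letters GAAANNGAA, as they occur in interferon-stimulated response elements, were found on either strand in 8 of the 17 windows matched for the 20 genes (47.1%, Wilson 95% interval 26.2% to 69.0%), beside 8.56% of all windows and 6.41% of the 8317 windows of compared genes within 2-fold. This motif was added after the values were seen. The list holds interferon-response genes whatever their change, so the share describes the list and not the step from day 2 to day 3. The window of *Isg15* (minus strand, chr4:156200769-156201068) holds 3 overlapping matches, and that of *Ifit1* (plus strand, chr19:34640639-34640938) 3 matches read on the opposite strand. Matches are in capitals.
Isg15: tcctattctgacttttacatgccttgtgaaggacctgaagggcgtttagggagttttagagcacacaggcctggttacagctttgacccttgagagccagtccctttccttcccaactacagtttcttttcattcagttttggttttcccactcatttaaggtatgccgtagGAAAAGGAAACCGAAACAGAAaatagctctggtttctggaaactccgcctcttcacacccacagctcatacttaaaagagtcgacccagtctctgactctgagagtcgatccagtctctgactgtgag
Ifit1: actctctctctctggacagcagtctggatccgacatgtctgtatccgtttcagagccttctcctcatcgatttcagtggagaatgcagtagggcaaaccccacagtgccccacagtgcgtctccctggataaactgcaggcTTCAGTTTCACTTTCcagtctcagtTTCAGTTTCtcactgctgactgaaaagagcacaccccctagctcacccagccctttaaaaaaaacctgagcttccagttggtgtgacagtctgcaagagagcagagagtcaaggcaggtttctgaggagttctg

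Glycolysis and hypoxia response genes shifted upwards, most of them within 2-fold. All 32 listed were above FPKM 1, and their median log2 ratio was 0.57. Of these, 7 rose (21.9%) and 0 fell, beside 5.79% and 3.84% of all genes. The glucose transporters *Slc2a1* (154 to 453) and *Slc2a3* (273 to 609) and the hypoxia-induced *Ndrg1* (4.56 to 23.3), *Ddit4* (22.6 to 50.7) and *P4ha1* (17.7 to 40.8) rose, and *Pgk1* (273 to 484), *Ldha* (895 to 1290.4) and *Bnip3* (42.6 to 81.5) had higher values within 2-fold. ACGTG, the core of hypoxia response elements and also chosen after the values were seen, occurs in 18 of 30 matched windows (60%, Wilson 95% interval 42.3% to 75.4%) against 19.6% of all windows and 27.2% of the 8317 windows of compared genes within 2-fold. This share too covers the listed genes whatever their change, and does not describe the step from day 2 to day 3. The *Slc2a1* window (plus strand, chr4:119108495-119108794) holds 1 match, in capitals.
Slc2a1: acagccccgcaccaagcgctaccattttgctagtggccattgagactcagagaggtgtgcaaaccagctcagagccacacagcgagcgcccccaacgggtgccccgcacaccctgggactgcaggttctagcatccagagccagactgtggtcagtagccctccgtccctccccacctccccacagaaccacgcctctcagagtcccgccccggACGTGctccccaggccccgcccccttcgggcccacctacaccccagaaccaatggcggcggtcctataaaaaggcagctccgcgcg

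Targets of Atf4, which answers to amino acid shortage, moved the other way, with a median of −0.48. Of 27, 5 fell (18.5%) and 1 rose (3.7%), beside 3.84% and 5.79% of all genes. *Chac1* (8.77 to 3.61), *Trib3* (14 to 6.64) and *Psph* (55.2 to 25.4) fell, and *Atf4* itself (302 to 197) stayed within 2-fold. *Ddit4*, on both lists, rose. Of 25 cell cycle genes above 1, the inhibitor *Cdkn1c* rose (4%, a share near that of all genes) and none fell. *Mki67* went from 54.3 to 65.9 and *Ccnb1* from 183 to 175.

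Trophoblast and amnion-associated genes rose in 9 of 12 cases with 0 falling, 2 of the 9 forced by the minimum, among them *Krt7* (10.2 to 46.4), *Cdx2*, *Wnt6* (1.85 to 4.91), *Plac1* (0.431 to 1.55) and *Tfap2c* (3.01 to 6.74), several of which are mesoderm genes too and stand on other lists. Chemokine, apelin and migration genes rose in 8 of 17 cases with 1 fall, *Cxcl12* (3.54 to 1.36). Of these calls 3 were forced by the minimum, and 4 of 13 above 1 on both days rose. Ephrin, semaphorin, Slit and netrin genes rose in 7 of 28 with 0 falls (*Efnb1* 2.25 to 9.26, *Epha4* 1.46 to 5.71), and cardiac and lateral mesoderm regulators in 8 of 15 with 0 falls. The minimum forced 4 of these last 8, and 4 of 11 rose among those above 1 on both days. For ephrin, semaphorin, Slit and netrin genes above 1 on both days, 3 of 23 rose. Over all genes compared, 5.79% rose and 3.84% fell. The rising shares were 75% of trophoblast and amnion-associated, 53.3% of cardiac, 47.1% of migration and 25% of ephrin and semaphorin genes. Collagens, laminins and integrins went both ways (6 rose and 4 fell of 26), with 4 of these calls forced by the minimum. So did primordial germ cell genes (3 and 3 of 12), immediate early genes (2 and 2 of 20) and Notch genes (2 and 1 of 15). Retinoic acid genes did too (3 and 1 of 12, with the binding protein *Crabp1* falling from 8.64 to 1.39). Among members above 1 on both days, 3 of 19 collagens, laminins and integrins rose and 0 fell. Of immediate early genes 2 of 17 rose and 0 fell, and of Notch genes 0 of 13 rose and 1 fell. Of 12 neural genes 2 rose, of 5 endoderm genes 2 rose and 1 fell, of 5 blood and endothelial genes 1 rose, and of 6 fibroblast transcripts 2 rose and 1 fell. Above 1 on both days, 0 of 10 neural genes and 0 of 2 endoderm genes rose or fell, and 1 of 4 blood and endothelial genes rose. DNA methylation enzymes fell in 1 case of 12, *Dnmt3l*, while *Dnmt3b* went from 148 to 91.2. Rising shares were 25% of germ cell and retinoic acid, 23.1% of collagen, 16.7% of neural, 13.3% of Notch and 10% of immediate early genes. Falling shares were 25% of germ cell, 15.4% of collagen, 10% of immediate early, 8.33% of retinoic acid and DNA methylation and 6.67% of Notch genes.

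About as many risers rose in every KO line as in none of them. The KO columns share no value with the WT ratio, but each table was normalized on its own, so levels set across them are approximate. The 660 risers had a median log2 ratio of 1.10 in *Eomes* KO, 0.97 in *T* KO and 1.06 in dKO cells, against 0.04, −0.01 and 0.02 over all 11394 genes. In *Eomes* KO cells 345 of the 660 rose (52.3%) and 50 fell, in *T* KO cells 316 (47.9%) and 48, and in dKO cells 339 (51.4%) and 19. Over all genes compared, 12.1% rose and 9.57% fell in *Eomes* KO, 12.2% and 8.3% in *T* KO and 7.71% and 2.55% in dKO cells. Of the 437 fallers, 206 fell in *Eomes* KO (47.1%), 258 in *T* KO (59%) and 133 in dKO cells (30.4%). Counted per gene, 197 of the 660 risers (29.8%) rose in all 3 KO lines and another 197 in none of them, while 335 of all genes (2.94%) rose in all 3. Of the fallers 84 (19.2%) fell in all 3, beside 108 (0.948%) of all genes.

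Genes that rose in all 3 KO lines included the keratins. *Krt18* went from 182 to 807 in *Eomes* KO, 243 to 1099 in *T* KO and 217 to 1209 in dKO cells. *Krt7* went from 4.72 to 70.4 in *Eomes* KO, 7.25 to 78.6 in *T* KO and 7.29 to 113 in dKO cells, and the glucose transporter *Slc2a1* from 137 to 533 in *Eomes* KO, 202 to 497 in *T* KO and 135 to 452 in dKO cells. *Igf2* went from 5.52 to 422 in *Eomes* KO, 12.7 to 239 in *T* KO and 7.89 to 197 in dKO cells, against 113 on day 3 in WT cells. *Hand1*, a cardiac and extra-embryonic mesoderm gene, rose as well (1.71 to 62.9 in *Eomes* KO, 7.02 to 29.5 in *T* KO and 2.78 to 32.2 in dKO cells). *H19*, beside *Igf2*, was low in the KO lines on both days (0.741 to 3.25 in *Eomes* KO, 0.992 to 3.1 in *T* KO and 1.16 to 4.49 in dKO cells), against 129 on day 2 and 627 on day 3 in WT cells. Of the 20 interferon-response and antigen processing genes, 9 rose in *Eomes* KO, 12 in *T* KO and 8 in dKO cells. *Psmb8* reached lower levels than in WT, with 1.65 to 5.22 in *Eomes* KO, 1.76 to 14.6 in *T* KO and 1.21 to 8.2 in dKO cells. So did *Gbp2* (11.7 to 93.9 in WT), a guanylate-binding GTPase that was no list member and has the close copy *Gbp2b*. *Gbp2* went from 5.08 to 41.6 in *Eomes* KO, 5.42 to 35.6 in *T* KO and 5.23 to 42.5 in dKO cells. *Isg15* rose in *T* KO and dKO cells and was at 0 on day 3 in *Eomes* KO cells (0.0934 to 0 in *Eomes* KO, 0 to 1.24 in *T* KO and 0.0516 to 1.76 in dKO cells).

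Genes that rose in no KO line included *T* and other streak genes. *T*, targeted in *T* KO and dKO cells, went from 22.3 to 4.46 in *Eomes* KO, 6.64 to 3.0 in *T* KO and 2.77 to 1.93 in dKO cells, so some signal remained over the gene in the lines that target it. *Eomes*, targeted in *Eomes* KO and dKO cells, went from 2.42 to 0.276 in *Eomes* KO, 24.7 to 4.83 in *T* KO and 1.24 to 0.346 in dKO cells. By the paper, RT-PCR and western blots of the differentiated KO lines showed the targeted transcripts and proteins to be absent. *Fst* (8.75 to 2.35 in *Eomes* KO, 31.2 to 3.8 in *T* KO and 11.7 to 8.27 in dKO cells), *Mixl1* (0.416 to 0.0179 in *Eomes* KO, 0.507 to 0.105 in *T* KO and 0.239 to 0.173 in dKO cells) and *Apln* (0.415 to 0.39 in *Eomes* KO, 2.37 to 1.33 in *T* KO and 0.384 to 0.439 in dKO cells) did not rise, *Msgn1* was listed at 0 in every KO column, and *Aplnr* and *Arg1* stayed below 0.3. *Vim* reached 73, 51.4 and 81.2 on day 3, against 265 in WT cells. *Igfbp3*, an IGF-binding protein (80.6 to 219 in WT), went from 46.7 to 41.8 in *Eomes* KO, 99.1 to 32.5 in *T* KO and 38.4 to 47.5 in dKO cells. *Cdx2* (3.65 to 0.439 in *Eomes* KO, 3.76 to 0.498 in *T* KO and 3.66 to 1.96 in dKO cells) was already above its WT day 2 level on day 2 in the KO lines and did not rise from there.

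**Figure D5:**
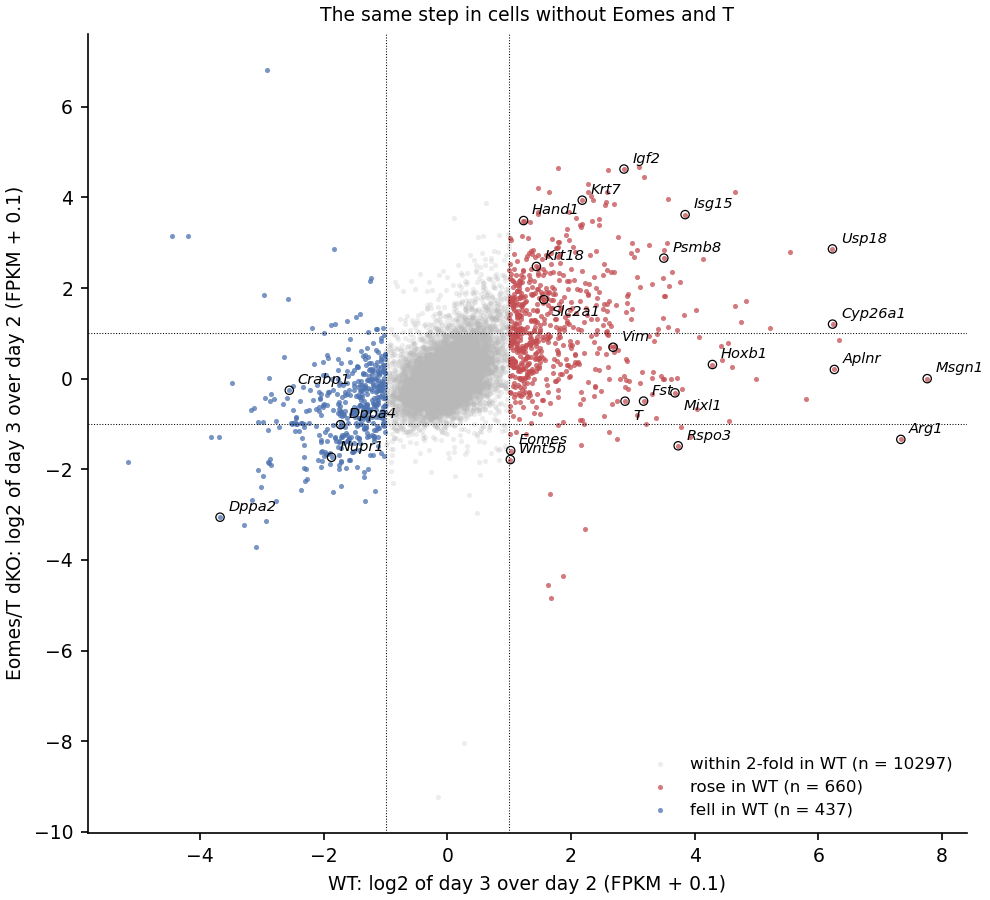
Log2 ratio of day 3 to day 2 in *Eomes*/*T* dKO cells (vertical) against the same ratio in WT cells (horizontal), both on FPKM + 0.1, for the 11394 genes. Genes that rose in WT (red) spread from *Igf2*, *Krt7* and *Isg15* above 2-fold (dotted lines) in both to *Msgn1*, *Arg1*, *Mixl1* and *T*, which lie at or below 0 in dKO cells.

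Some values of named genes are uncertain because reads can be shared with close copies. *Eif3j1* went from 0.077 to 14.2, but its sum with *Eif3j2* was 39.8 on day 2 and 39.9 on day 3. *Rps27* (84.3 to 20.8) summed with *Rps27rt* to 728 and 734, and *Hist1h2ap* (11.1 to 1.38) with 9 other H2A genes to 629 and 666. *DQ267102* (2.15 to 60.9) is a snoRNA gene, a class for which FPKM is strongly affected by length. The other genes with the highest ratios among those reaching FPKM 10 were *Nab2* (1.67 to 29.5), a corepressor of Egr1, and *Tmem176b* (0.601 to 12.2). The share of genes that rose varied with transcript length and GC content more than the median did. Over 4 equal groups by length it ran from 4.2% to 7.28%, highest for the shortest transcripts, and over 4 groups by GC content from 3.44% to 6.89%, lowest for the lowest GC content. The median log2 ratio of protein-coding genes lay between −0.02 and 0.03 in each of these groups, and the median by chromosome between −0.10 and 0.10.

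Part of both sets also differed past 2-fold between earlier stages. From ES cells to day 1, a step that shares no column with the one described, 128 of the 660 risers had risen and 101 had fallen, beside 986 (8.65%) and 444 (3.9%) of all genes. Of the 437 fallers 137 had risen and 37 had fallen in that first step. The risers were low at these stages, with a median FPKM of 0.597 in ES cells and 0.676 on day 1. In the lowest of the 10 expression groups, 189 of 1140 genes differed past 2-fold between the WT lines on day 2. Scatter at low levels was thus not separated from earlier change. On the 4-stage course 617 of the 660 risers had their highest value on day 3, which stands for 93.5%, and 40 in ES cells, day 2 being barred by the way risers were chosen. The fallers had their highest value in ES cells in 130 cases, on day 1 in 144 and on day 2 in 163.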

How the data were processed

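RNA-seq of WT mESCs (ES cells and days 1, 2 and 3) and of KO lines on days 2 and 3 was used. The authors made strand-specific libraries from total RNA, aligned reads to mm10 with HISAT2 2.1.0 and computed FPKM values over RefSeq genes with Cuffdiff 2.2.1, after cutadapt 2.9 (tools and versions per the submitters' processing notes). The deposited tables hold 1 FPKM value per gene and condition, a pooled value of the authors without SD, so the depth behind each value is unknown and differences between days have no replicate check. Cuffdiff can assign reads shared by close copies unevenly.

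From these values, log2 ratios were computed after adding a pseudocount of 0.1, which understates changes of low genes, for the 11394 genes above FPKM 1 on day 2 or day 3. No column of per-sample values was left unmapped. Changes past 2-fold were counted and described without a test. Samples were grouped by their labels. The members, the 36 gene lists and the tests were chosen with earlier results of these data known, and promoter letters for the interferon and hypoxia lists were chosen after the values were seen. Named genes are the 10 highest and 10 lowest ratios among genes reaching FPKM 10 and above 0 on both days, the 5 largest gains and losses, up to 4 genes in each direction and 2 within 2-fold per list, and the neighbours of each limit. Genes outside this rule, such as stage markers and genes followed into the KO lines, were picked after their values were seen. Promoter windows came from RefSeq GRCm38.p6. Alternatives changed the pseudocount, the FPKM minimum, the scaling, the WT columns and the genes counted. Counting was tested on simulated data, with changes set only in genes above FPKM 2 on day 2. Changes in genes below that level were not covered. Python 3.11.15, numpy 2.4.6, pandas 2.3.3 and matplotlib 3.10.9 were used.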

Additional observations from a re-analysis of the deposited data

Results flagged for a closer look

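The 4 genes named here reached FPKM 10 in a WT column and moved past 2-fold in opposite directions in WT and in every KO line, and this difference was not tested. *Rspo3* rose in WT cells by 3.73 on the log2 scale, against −2 in *Eomes* KO, −3.76 in *T* KO and −1.48 in dKO cells. *Eomes*, the targeted gene in *Eomes* KO and dKO cells, had 1.03 in WT cells and −2.75, −2.33 and −1.59 in the KO lines in that order. *Wnt5b* had 1.02 in WT cells and −3.26, −1.13 and −1.79 in the KO lines. *Nt5e*, which encodes the ectonucleotidase CD73, had 1.02 in WT cells and −3.29, −1.58 and −1.23 in the KO lines. *Wnt5b*, *Nt5e* and *Eomes* lie close to the 2-fold limit in WT cells, and each value rests on 1 pooled column per day.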

How the results depend on the processing

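The counts of 660 genes that rose and 437 that fell depended on the handling of low values. With a pseudocount of 1 they were 406 and 184, with no FPKM minimum 1194 and 1100 of 16905 genes, with a minimum of FPKM 5 they were 314 and 121 of 8012 genes, and with FPKM above 1 in both columns, an alternative chosen after seeing the data, 362 and 188. The share of rises among the called genes was 60.2% and became 72.2% with a minimum of FPKM 5. With day 2 of the other WT line, also chosen after seeing the data, 1042 rose and 458 fell when its FPKM was scaled before the pseudocount was added, against 1039 and 458 when the log2 ratio was shifted instead. Counts stayed within 1.5 times without a pseudocount (700 and 463), after rescaling to TPM (669 and 462), with day 3 scaled to a median of 0 (658 and 440), with the WT columns of the *Eomes* KO tables (740 and 383) and for protein-coding genes (628 and 402). A median is said to have moved when it shifted by over 0.25 on the log2 scale. In *Eomes* KO cells the median log2 ratio of WT risers, 1.10, was 0.62 with a pseudocount of 1, 0.78 with no minimum and 1.56 after rescaling to TPM, and that of WT fallers, −0.93, was −0.50 with no minimum, −1.31 with a minimum of FPKM 5 and −0.51 as TPM. With no minimum the risers and fallers had 0.64 and −0.84 in *T* KO cells and 0.69 and −0.36 in dKO cells, and with a pseudocount of 1 the risers had 0.68 in dKO cells. No value past 2-fold changed sign under the alternatives run on it. The baseline of the other WT line was run on the counts and is described per gene in the report. Over all settings 285 of 322 list medians and 947 of 1047 ratios of the 210 named genes did not move, a gene's ratio being held to the robust SD between the WT lines at its level. No paired analysis was possible because each day is a single pooled column, and no replicate could be left out for the same reason. The planned comparison of promoter letters between risers and fallers was void because under 80% of either set had a promoter window. Read depth is unknown, so values near FPKM 1 have an unknown counting error.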

Other observations

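Some germline genes fell, and those named here were chosen after the values were seen. In the list of primordial germ cell genes 3 of 12 above FPKM 1 rose, *Dnd1* (4.22 to 15.8), *Ifitm1* (7.24 to 32.5) and *Tfap2c* (3.01 to 6.74), and 3 fell, among them *Dazl* and *Ddx4*. *Hormad1*, a protein of the meiotic chromosome axis, went through 21.8, 10.7, 2.38 and 0.224 FPKM in ES cells and on days 1, 2 and 3, and *Sycp3*, of the synaptonemal complex, through 11, 37.3, 32.5 and 10.9. *Dazl*, an RNA-binding protein of germ cells, fell from 1.18 on day 2 to 0.0709 on day 3, *Mael* from 3.33 to 0.743 and *Tdrd12* from 4.35 to 1.22. All of these also fell in the 3 KO lines. *Ddx4*, a germ cell helicase, fell from 9.72 to 3.9 and fell in *Eomes* KO and dKO cells, with a log2 ratio of 0.02 in *T* KO cells.

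Genes next to each other on the chromosome, with no other gene above FPKM 1 between them, were looked at as pairs, as a description with no test. Among 11337 adjacent pairs the downstream gene rose in 13.6% of pairs whose first gene rose, against 5.79% of all pairs, and fell in 6.44% of pairs whose first gene fell, against 3.83%. Runs of at least 3 adjacent genes moving one way numbered 13 for rises and 4 for falls. Rising runs included *Gbp7*, *Gbp3*, *Gbp2b* and *Gbp2* (chr3:142530336-142638008, mm10) and *H19*, *Igf2* and *Igf2os* (chr7:142575530-142670356). Falling runs included *Dppa4*, *Dppa2* and *Morc1* (chr16:48283735-48630905) and 2 runs of zinc finger genes on chromosome 4, of which the longer holds *Zfp980*, *Znf41-ps*, *Zfp987*, *Zfp992* and *Zfp981* (chr4:145670697-146539395). The *Gbp* and *Zfp* genes are close copies of each other, so reads may be shared among them, and that share was not tested.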
